A study of Mus musculus with 36 samples.

Results

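The 112 genes described here are the class II olfactory receptor genes of mouse chromosome 7, out of 24639 genes with a symbol in the tables and 1105 olfactory receptor genes. They were chosen by name and place alone: the symbol is Olfr followed by digits only, and the locus lies on chromosome 7 (build mm9) outside the window of the class I receptors, which holds 123 genes from Olfr543 (start 109625287) to Olfr691 (end 112486228). Their levels were measured by RNA-seq in 36 libraries of C57BL/6 mice aged 6 months, with 12 libraries each from the main olfactory epithelium (MOE), the vomeronasal organ (VNO) and the olfactory bulb (OB). In each tissue the libraries fell into 4 groups of 3, namely females (SF) and males (SM) of the sex-separated condition, and females (CF) and males (CM) of the sex-combined condition. All mice were weaned at 3 weeks and then kept 4 to a cage, with their own sex only (SF, SM) or with both sexes (CF, CM), and no transgene, deletion or drug was part of the design. Each library was a pool of RNA from several mice (2 by the series' design text, a larger number by the study's methods), so the spread between libraries is one between pools and not between single mice.

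Olfactory receptors are G protein-coupled receptors that detect odorants on the cilia of olfactory sensory neurons. A mature neuron transcribes a single receptor gene from a single allele, so the level of a receptor in whole epithelium depends both on how many neurons chose it and on how much RNA each of them holds. Class I receptors resemble those of fish and lie in a single cluster in the mouse, whereas class II receptors form the larger, tetrapod-expanded class and are spread over many chromosomes. The VNO detects pheromones and other chemosignals mainly with receptors of other families, and the OB holds the axons of olfactory neurons but not their cell bodies.

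The tables list FPKM, a fragment count divided by transcript length and by sequencing depth, so levels of different receptors are compared here per length. The fragments behind each FPKM were estimated from its confidence limits, and those on all listed transcripts summed to 3006004 to 5843564 per library in MOE, 3371765 to 6429907 in VNO and 3250825 to 6007192 in OB. The tissues matched their labels: mature olfactory neuron markers (6 genes, among them Omp, Cnga2 and Gnal) summed to 1740 ± 259 FPKM (SD, n = 12) in MOE, 124 ± 16.3 in VNO and 50.6 ± 5.67 in OB, vomeronasal neuron markers (5 genes, among them Trpc2 and Vmn2r1) to 7.80 ± 0.769, 82.1 ± 6.76 and 69.9 ± 6.37, and bulb neuron markers (6 genes, among them Th and Gad1) to 7.82 ± 1.39, 2.14 ± 0.456 and 306 ± 23.1. The vomeronasal list includes Gnao1 and Meis2, which bulb neurons also express. MOE-CM3 (638 FPKM) and MOE-SF2 (758) stood apart from the other MOE libraries with the lowest Omp. For MOE-SF2 the paper's list of samples gives the lowest RNA integrity number of the MOE libraries. MOE-CM3 also had the fewest estimated fragments of the MOE libraries (3006004), and the paper lists its alignment rate as the lowest of them. By the paper it nevertheless had the most input read pairs of the MOE libraries, and its aligned pairs were not the fewest. The members' median difference in each comparison between groups is also given without the library concerned. The interaction values, the unadjusted p counts, the overlap counts and the other gene lists are given with all libraries only.

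Class membership was checked against the coding sequences of all mouse receptors (GENCODE M21). For 109 of the 112 genes, none of the 5 closest relatives lay in the class I window. The other 3 were Olfr692, with 5 of 5 relatives there, and Olfr503 and Olfr504, with 4 of 5. The sequences thus go against the class II label for these genes, which are named wherever they matter below. Olfr692 lies at chromosome 7, 112516842 to 112517831 (mm9), just past the edge of the window, and its best match (Olfr646) covered only 19.4% of its coding sequence at 75.9% identity. Olfr503 (115688041 to 115689012) lies among class II genes but was 97.1% identical to Olfr658 of the window, and Olfr504 was 95.5% identical to Olfr657. The opening coding bases of Olfr503 and Olfr658 show how alike they are, with the 6 differing bases in capitals.
Olfr503: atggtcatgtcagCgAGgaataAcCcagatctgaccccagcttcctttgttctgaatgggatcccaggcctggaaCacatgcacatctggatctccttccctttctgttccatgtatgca
Olfr658: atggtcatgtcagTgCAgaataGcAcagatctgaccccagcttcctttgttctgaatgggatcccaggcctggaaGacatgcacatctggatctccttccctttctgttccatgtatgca

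Elsewhere in the set the closest relative was mostly a neighbour: it lay in the same positional cluster for 89 of the 112 genes, at a median identity of 90.5% (range 65.0% to 99.0%). For 19 genes a relative was at least 95% identical over at least 90% of the coding sequence, so their reads could be split between copies and their levels are uncertain. One such pair is Olfr533, the second most abundant gene of the set, and Olfr530 (95.4% identical), and another is Olfr713 and Olfr714 (95.1%). The stretches below are the first aligned 120 coding bases of Olfr713 and Olfr714, with the 5 differences in capitals, and they are shown because the levels of these partners differed as described further on.
Olfr713: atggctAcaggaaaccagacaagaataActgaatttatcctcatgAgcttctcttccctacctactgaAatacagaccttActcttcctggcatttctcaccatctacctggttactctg
Olfr714: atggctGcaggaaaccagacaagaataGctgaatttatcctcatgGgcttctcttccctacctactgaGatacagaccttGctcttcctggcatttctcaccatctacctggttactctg

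Receptor promoters typically combine homeodomain sites, bound by factors such as Lhx2 and Emx2, with sites of the Ebf (O/E) family. Of the 99 members with a RefSeq start (GRCm38.p6), 78 started at the start codon itself, so the sequence before it is no promoter, and 12 had a start far enough upstream to be read as one. In the 250 bases before these 12 starts, the letters TAATNA, read on both strands, were found in 8, against 24.3% of all 32851 listed promoters of the same length. The letters TCCCNNGG were found in 4 of the 12 (19.0% of all), and the full Ebf palindrome, which contains TCCCNNGG, in 0 of the 12 (0.779% of all). The 150 bases before the start are shown for the most abundant members among the 12, Olfr536 (chr7:140507319-140507468, minus strand) and Olfr53 (chr7:140646302-140646451, plus strand), with these letters in capitals.
Olfr536: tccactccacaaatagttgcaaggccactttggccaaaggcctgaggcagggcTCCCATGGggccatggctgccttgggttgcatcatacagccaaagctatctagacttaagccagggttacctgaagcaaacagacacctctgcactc
Olfr53: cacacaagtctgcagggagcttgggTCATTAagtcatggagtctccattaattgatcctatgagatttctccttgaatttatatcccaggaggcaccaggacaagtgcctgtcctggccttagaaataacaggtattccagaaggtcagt
Over the full 250 bases, Olfr536 held TCCCNNGG at 2 places and no TAATNA, and Olfr53 held TAATNA and TCCCNNGG at 1 place each, the latter upstream of the bases shown.

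In MOE the set ran from abundant to undetected. The median member had a mean of 0.507 FPKM over the 12 libraries (quartiles 0.0758 and 1.54), 2 members reached 10 FPKM, 5 reached 5 FPKM, 34 reached 1 FPKM, and 32 stayed under 0.1 FPKM. The most abundant member was 39.8 times the median. The 2 highest members held 26.1% of the FPKM summed over the set, the 10 highest 53.8% and the 20 highest 68.9%, while the lower 56 held 5.55%. A level of 3 fragments, the limit that a count of 0 allows, corresponded to 0.246 to 0.310 FPKM depending on the library, so the lower members of the set lie near or under what this depth can show. Olfr474, Olfr503, Olfr504 and Olfr514 were listed at 0 in every MOE library, and 48 members had at least 3 fragments in all 12.

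The members formed 7 positional clusters, taken apart where neighbours lay more than 1 Mb from each other, and high levels were found in several of them. Cluster 7, at 147347909 to 147891090 near the distal end, held 19 genes with a median of 1.37 FPKM and 33.6% of the summed level, with Olfr533 (18.5 FPKM) as its highest. Cluster 6, at 113821048 to 116037919 just distal of the class I genes, was the largest with 65 genes, and its median was lower (0.426 FPKM), with 34.8% of the summed level and Olfr6 (9.69 FPKM) as its highest. Cluster 1, the most proximal at 6392613 to 6523630, had the highest median of the clusters with more than 2 genes (8 genes, 2.07 FPKM), led by Olfr1348 (5.20 FPKM). Cluster 3, at 93417240 to 93843894, was the most uneven: 15 genes had a median of 0.149 FPKM, yet Olfr309 alone reached 20.2 FPKM, the highest level of the set. Clusters 2 and 4 held 2 genes each (Olfr290 at 1.53 and Olfr291; Olfr520 at 0.0538 and Olfr521 at 0.0496 FPKM), and cluster 5 was Olfr692 alone (0.0652 FPKM).

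**Figure D1:**
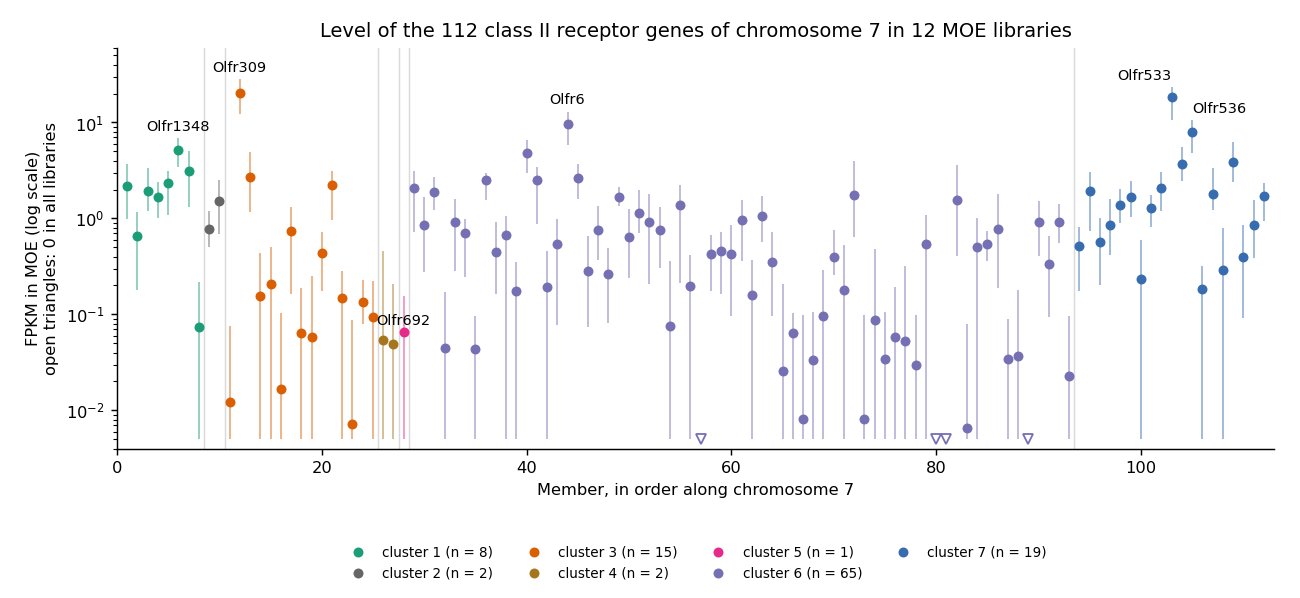
Mean FPKM in MOE (log axis) of each of the 112 members in their order along chromosome 7, coloured by positional cluster; bars run from the lowest to the highest of the 12 libraries and open triangles are the 4 genes at 0 throughout. Olfr309, Olfr533 and Olfr6 stand well above most of their neighbours, and 7 of the 8 genes of cluster 1 lie above 0.5 FPKM.

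Olfr309 (93454695 to 93455621) and Olfr533 (147652102 to 147653064) were the 2 highest members in all 12 MOE libraries, with Olfr309 the higher in 7 of them and Olfr533 in 5. Olfr309 measured 28.2, 15.4 and 20.1 FPKM in the SF libraries, 18.9, 16.9 and 19.3 in SM, 18.9, 19.4 and 21.0 in CF, and 27.4, 24.8 and 12.2 in CM. Olfr533 measured 23.4, 10.6 and 21.4 FPKM in SF, 21.2, 17.7 and 20.6 in SM, 15.6, 20.9 and 17.7 in CF, and 21.4, 19.9 and 11.6 in CM. All 4 groups overlapped for both genes, and the lowest values came from MOE-SF2 and MOE-CM3. Over the 12 libraries the means were 20.2 ± 4.68 and 18.5 ± 4.03 FPKM (SD), which differed by less than that spread. Relatives did not always share their levels: Olfr530, the best-scoring match of Olfr533, had 0.234 ± 0.179 FPKM, though reads of this pair could be split between them. Olfr536, 93.8% identical to Olfr530, measured 8.04 FPKM. The best-scoring match of Olfr309 was 68.5% identical to it.

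Olfr6 (9.69 ± 2.23 FPKM) and Olfr536 (8.04 ± 1.63) followed, holding ranks 3 and 4 in every library, and their means differed by less than 1 SD of Olfr6. Olfr536 had more fragments than any other member (5545 over the 12 libraries, against 2555 for Olfr309), and its annotated locus spans 6466 bases. Of the 112 loci, 99 span at most 1200 bases, about a single coding exon, and only 13 are longer. Receptors listed without untranslated parts count fewer fragments, so fragment numbers do not rank the genes. Olfr1348 (5.20 ± 1.24), Olfr705 (4.80 ± 1.06), Olfr53 (3.88 ± 1.17), Olfr535 (3.68 ± 0.866), Olfr1349 (3.12 ± 0.914) and Olfr308 (2.68 ± 1.06) completed the 10 highest, each within 1 SD of the next. Olfr308 was the least steady of these, ranking between 6 and 31.

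**Figure D2:**
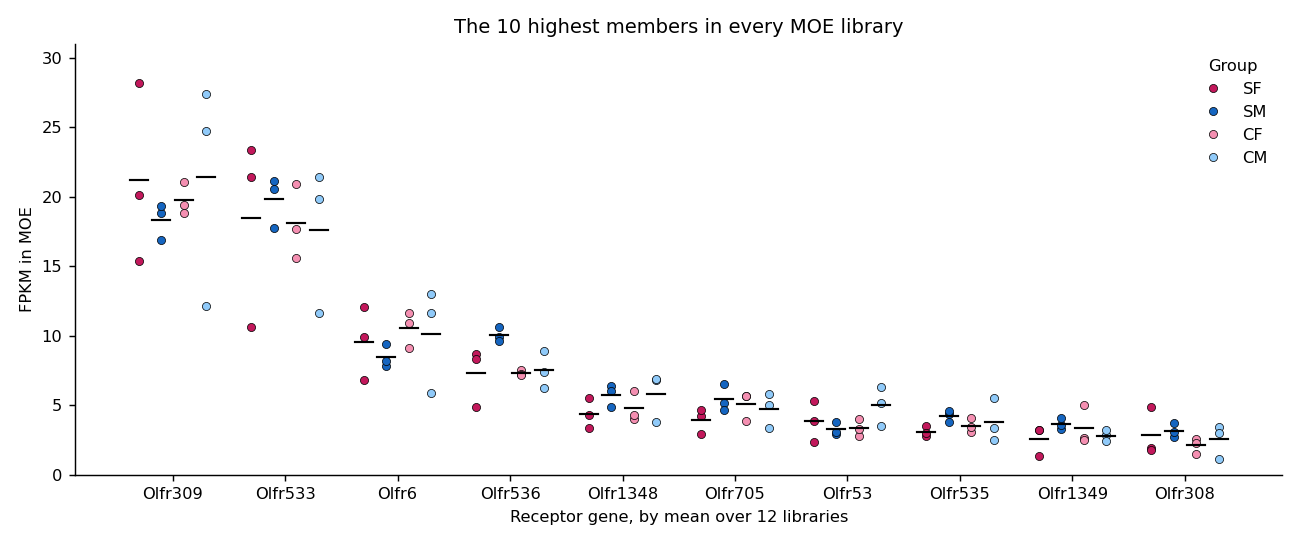
FPKM of the 10 members with the highest mean in MOE; each point is 1 pooled library, colours are the 4 groups and black bars the group means (n = 3). Olfr309 and Olfr533 lie above all others in each library, and the 4 groups overlap for most genes.

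Receptors of this chromosome that are standard models sat lower. Olfr17, known as P2 and used to trace how axons of like neurons converge in the bulb, measured 1.67 ± 0.274 FPKM (1.34 to 2.11, n = 12). Its neighbours Olfr713 and Olfr714 measured 0.758 ± 0.260 and 0.263 ± 0.134 FPKM. Olfr713 was above its near-identical partner in 12 of 12 libraries, most narrowly in MOE-SM3 (0.463 and 0.311 FPKM). Olfr2, known as I7 and as a receptor for octanal, measured 0.285 ± 0.151 FPKM (0.0737 to 0.658), a level of 1 to 9 fragments per library. Olfr6, known as M50, was the only one of these among the 10 highest.

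Spread between libraries was mostly somewhat above what counting alone would give. Among the 34 members of at least 1 FPKM, the coefficient of variation over the 12 libraries had a median of 27.6%, and counting error alone would give 20.6%. It was above 1.5 times the counting value in 16 members and above 2 times in 8. Olfr701 (16.1%), Olfr17 (16.4%) and Olfr536 (20.3%) varied least. For Olfr536, with its many fragments, counting would give only 4.66%. Olfr491 (50.7%), Olfr506 (50.6%) and Olfr1344 (40.3%) varied most, with counting values of 23.7%, 24.8% and 22.3%. Olfr506 ran from 0.404 FPKM in MOE-CM3 to 3.58 in MOE-SF1, and Olfr491 from 0.647 in MOE-SF2 to 4.01 in MOE-CM1.

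Summed over the set, MOE libraries reached 148 ± 25.7 FPKM (SD, n = 12), which was 9.15% to 10.7% of the FPKM of all olfactory receptors. The sums were 174.6, 102.0 and 160.3 FPKM in SF, 154.4, 151.5 and 160.7 in SM, 141.9, 150.1 and 134.4 in CF, and 177.2, 173.5 and 99.33 in CM. MOE-SF2 and MOE-CM3 had the lowest sums and the lowest Omp, the marker of mature olfactory neurons. The sum per Omp varied less, between 0.133 and 0.177, with group means of 0.145 ± 0.0111 in SF, 0.151 ± 0.00603 in SM, 0.142 ± 0.00794 in CF and 0.166 ± 0.0105 in CM. The share in all receptor FPKM was 9.64 ± 0.435% in SF, 10.4 ± 0.379% in SM, 9.85 ± 0.151% in CF and 10.2 ± 0.289% in CM. In bulk tissue, fewer neurons of a kind and less RNA per neuron cannot be told apart.

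**Figure D3:**
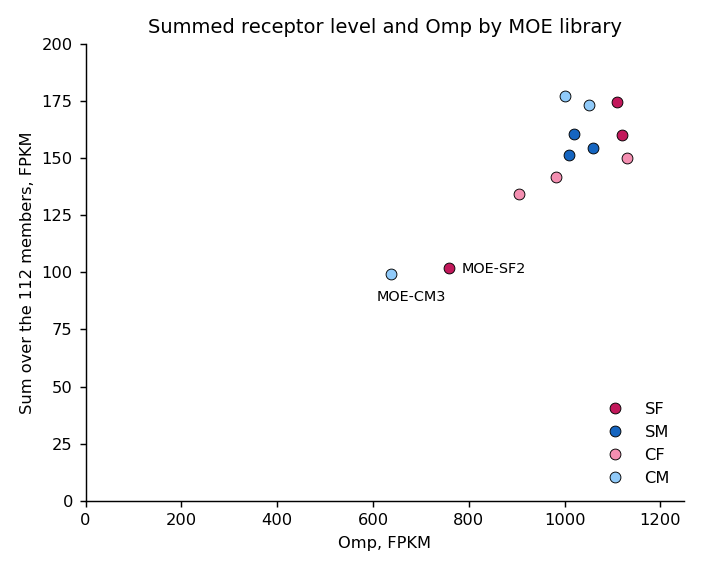
Summed FPKM of the 112 members against Omp FPKM in the 12 MOE libraries, 1 point per pooled library, coloured by group. MOE-SF2 (102.0 FPKM) and MOE-CM3 (99.33 FPKM) lie apart at low values on both axes, and the other 10 libraries lie between 134.4 and 177.2 FPKM.

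Compared with the other receptors, the set had a lower centre but no smaller share of high members. Its median was below that of the 993 other receptor genes in 12 of 12 MOE libraries (0.507 against 0.658 FPKM over the library means). The share reaching 0.5 FPKM was 50.9% against 58.2%, whereas the share reaching 5 FPKM was 4.46% against 3.63%. The class I window had a median of 0.642 FPKM and a highest member of 6.34 FPKM, the 285 receptors of chromosome 2 a median of 0.885, and the 132 of chromosome 9 a median of 0.352. At the edges of the window, the last gene inside it, Olfr691, measured 0.810 ± 0.379 FPKM in MOE, Olfr692 just outside 0.0652 ± 0.0520, the first gene inside, Olfr543, 0.0391 ± 0.0409, and Olfr521 below it 0.0496 ± 0.0792.

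Most class II receptors of the chromosome were far lower outside MOE. In limma's test on log2(FPKM + 0.5) over all 36 libraries, with Benjamini-Hochberg adjustment over 24574 genes, 92 of the 112 were higher in MOE than in VNO (34.3% of all genes tested were), 1 was lower (28.8% were) and 19 did not pass. Against OB, 93 were higher (36.1% of all genes), 1 was lower (29% of all genes) and 18 did not pass. The differences reached 5.32 on the log2 scale for Olfr309 in MOE over VNO (SE 0.104, adjusted p = 1.74e-24) and 5.09 for Olfr533 in MOE over OB (SE 0.109, adjusted p = 2.85e-24). The gene that was lower in MOE was in both cases Olfr692. The members that did not pass were low in each tissue, and a p that misses the threshold does not show that their levels were equal. Per the paper, each mouse gave all of these tissues, so libraries of different tissues can hold RNA of the same mice. The main fit took the 36 libraries as independent, and counts from a fit with a block are given at the end.

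Olfr692, which has been described in vomeronasal neurons, was the sole member with a clear VNO level. It measured 2.35, 1.75 and 2.28 FPKM in SF, 2.91, 1.24 and 2.31 in SM, 3.33, 3.69 and 2.76 in CF, and 2.47, 1.16 and 2.196 in CM, from 13 to 53.9 fragments per library. Every VNO library lay above every MOE library (0 to 0.156 FPKM, at most 2 fragments) and every OB library (0.134 to 0.488 FPKM). On the log2(FPKM + 0.5) scale MOE was below VNO by 2.30 (SE 0.0959, adjusted p = 2.33e-17, limma) and below OB by 0.51 (adjusted p = 3.82e-05), and VNO was above OB by 1.79 (adjusted p = 2.18e-15). This gene alone made up 61.9% of the VNO sum of the set (3.83 ± 1.16 FPKM). Its closest relatives lie in the class I window, as stated above.

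Without Olfr692, Olfr503 and Olfr504, the other 109 genes summed to 1.46 FPKM in VNO and 1.21 in OB, 101 and 122 times below their sum in MOE. Cnga2, a channel subunit of olfactory but not vomeronasal transduction, was 97.7 times lower in VNO and 354 times lower in OB than in MOE. Whether olfactory neurons carried along with the tissue gave these traces was not tested. The next members in VNO were Olfr533 (0.125 ± 0.153 FPKM) and Olfr60 (0.0620 ± 0.0724), and 8 members besides Olfr692 had 3 fragments in at least 1 VNO library. The library VNO-SM1 held several of these at once, with Olfr6 at 0.498, Olfr533 at 0.485 and Olfr705 at 0.482 FPKM (6 fragments each), and it also had the highest Cnga2 of the VNO libraries (3.72 FPKM, others 0.880 to 3.31). Olfr474, Olfr512 and Olfr514 were nominally higher in VNO than in MOE, but on 1, 6 and 2 fragments over 12 libraries, which is no detectable difference at this depth.

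In OB, Olfr692 was the only member above 0 in all 12 libraries, and Olfr1344 had the highest mean (0.340 ± 0.255 FPKM). Olfr1344, a cluster 1 gene, measured 0.584, 0.771 and 0 FPKM in SF, 0.449, 0.516 and 0.570 in SM, 0.113, 0.190 and 0.0993 in CF, and 0, 0.458 and 0.332 in CM, at most 9 fragments in a library. The SF and CM libraries scattered widely, and at these levels Olfr1344 did not enter the main test between groups in OB. Its VNO values were 0 in 11 of 12 libraries, and OB was above VNO by 0.66 on the log2 scale (VNO minus OB -0.66, SE 0.148, adjusted p = 2.76e-04, limma). Olfr309 was also above 0 in 11 of 12 OB libraries (0.177 ± 0.110 FPKM) and in 1 of 12 VNO libraries (VNO minus OB -0.40, SE 0.104, adjusted p = 1.22e-03). Besides these, Olfr692 and Olfr512 passed in VNO over OB, the latter with a difference of only 0.09, so that 2 members were higher in VNO (31.8% of all genes) and 2 lower (32.7%). Olfr533, nearly as high as Olfr309 in MOE, measured 0.0496 ± 0.0861 FPKM in OB, so the order of levels in OB was not that in MOE.

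**Figure D4:**
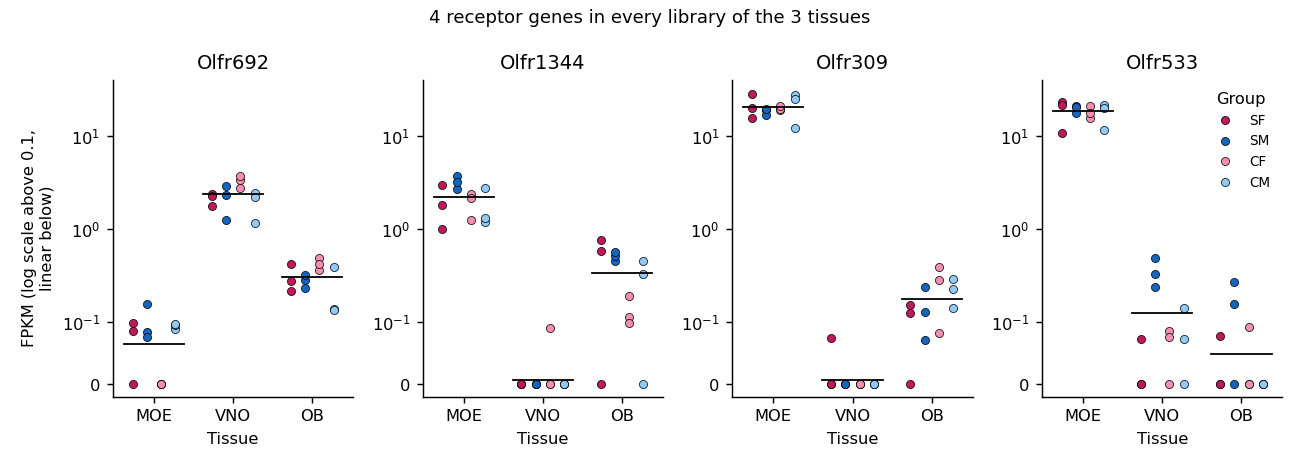
FPKM (log scale above 0.1, linear below) of 4 members in all 36 libraries, by tissue and coloured by group; black bars are tissue means (n = 12). Olfr692 is highest in VNO (2.37 FPKM), Olfr309 and Olfr1344 are at 0 in 11 of 12 VNO libraries but above 0 in most OB libraries, and Olfr533 falls to 0.125 FPKM in VNO.

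The study asked whether living with the other sex alters receptor expression, and females and males were compared under each housing. In MOE, 57 of the 112 members had the mean of 0.5 FPKM needed for the test, taken over all 12 libraries whatever their group, and the other 55 were not tested. Between SF and SM, 0 of the 57 members passed the threshold in limma's test with Benjamini-Hochberg adjustment (0.102% of the 13757 genes tested did). At an unadjusted p under 0.05 there were 7 members (12.3%, against 4.16% of all genes). The median difference of the members, SF minus SM, was -0.155 on the log2 scale (-0.0215 over all genes), with 37 below 0 and 20 above. Without MOE-SF2, the SF library with low Omp, that median was 0.0103.

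The genes with the smallest p between SF and SM were neighbours in cluster 7. Olfr525 measured 0.412, 0.775 and 0.731 FPKM in SF and 1.602, 0.993 and 1.22 in SM (log2 difference -0.64, SE 0.202, adjusted p = 0.784 in limma). Olfr524 measured 0.399, 0.203 and 0.659 in SF and 0.749, 1.004 and 0.813 in SM (-0.58, SE 0.209, adjusted p = 0.986). Olfr531 measured 1.08, 1.22 and 1.04 in SF and 1.69, 1.72 and 1.77 in SM (-0.47, SE 0.192, adjusted p = 1 in limma). SF lay below SM without overlap for all 3. Such separation was found for 9 members (15.8%, against 14.2% of all genes in either direction), a share close to that of all genes. All 9 were lower in SF, among them Olfr535, Olfr536, Olfr705 and Olfr1349 of the 10 highest. The split by direction was not counted over all genes, so this direction cannot be called particular to the set. Members of cluster 7 had a median difference of -0.30 (15 tested, 12 below 0), those of cluster 1 -0.37 (7 tested, 6 below 0) and those of cluster 6 -0.01 (29 tested, 15 below 0). Without MOE-SF2 these medians were -0.19, -0.16 and 0.20, so cluster 6 turned in sign. No single member's difference passed, and the difference between clusters was not tested.

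Between CF and CM, 0 of 57 members passed (0.0436% of all genes did), and 4 had an unadjusted p under 0.05 (7.02%, against 1.75% of all genes). The members' median was -0.0406 (0.0996 over all genes), without MOE-CM3 it was -0.225, and without MOE-CM1 it was 0.0627. Olfr523, also in cluster 7, had the smallest p: it measured 0.743, 1.43 and 1.36 FPKM in CF and 2.37, 2.65 and 1.89 in CM (log2 difference -0.76, SE 0.215, adjusted p = 1 in limma). It was the single member whose groups did not overlap (1.75% of members, against 4.14% of all genes). Olfr715 (-0.58), which is 99.0% identical to Olfr715b and so uncertain, and Olfr472 (0.69) followed. For Olfr472, CM held 1.62, 1.10 and 0.214 FPKM, the last from MOE-CM3, and CF 1.596, 2.25 and 1.26, so the groups overlapped.

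Housing was compared within each sex on the same libraries, so the comparisons share samples with those above. Per the paper, pups were born in the sex-combined cages and killed within a day, and sex-separated cages stood in rooms of a single sex. The housing comparisons thus hold differences in breeding and room as well. Between SF and CF, 0 of 57 members passed (0.0509% of all genes did), 3 had an unadjusted p under 0.05 (5.26%, against 2.04%), and the median was 0.0270 (0.0598 over all genes), 0.160 without MOE-SF2 and -0.0971 without MOE-SF1. These 3 were Olfr523 (0.51), Olfr715 (0.50) and Olfr291 (-0.43), the last 97.6% identical to Olfr290. SF lay above CF without overlap for 2 members and below it for 1 (5.26%, against 10.4% of all genes). Between SM and CM, 0 of 57 passed (0.0654% of all genes did), 5 had an unadjusted p under 0.05 (8.77%, against 6.94%), and the median was 0.122 (0.174 over all genes). Without MOE-CM3 that median was -0.0599, and without MOE-CM1 it was 0.208. Olfr524 (0.61), Olfr1344 (0.76) and Olfr531 (0.44) had the smallest p. SM lay above CM without overlap for 6 members and below it for 0 (10.5%, against 13.4% of all genes). Among them, Olfr524, Olfr525, Olfr531, Olfr536 and Olfr1349 also separated between SF and SM, a comparison that uses the same SM libraries. Olfr1344 measured 3.68, 2.67 and 3.18 FPKM in SM and 1.19, 2.77 and 1.32 in CM, which overlap.

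**Figure D5:**
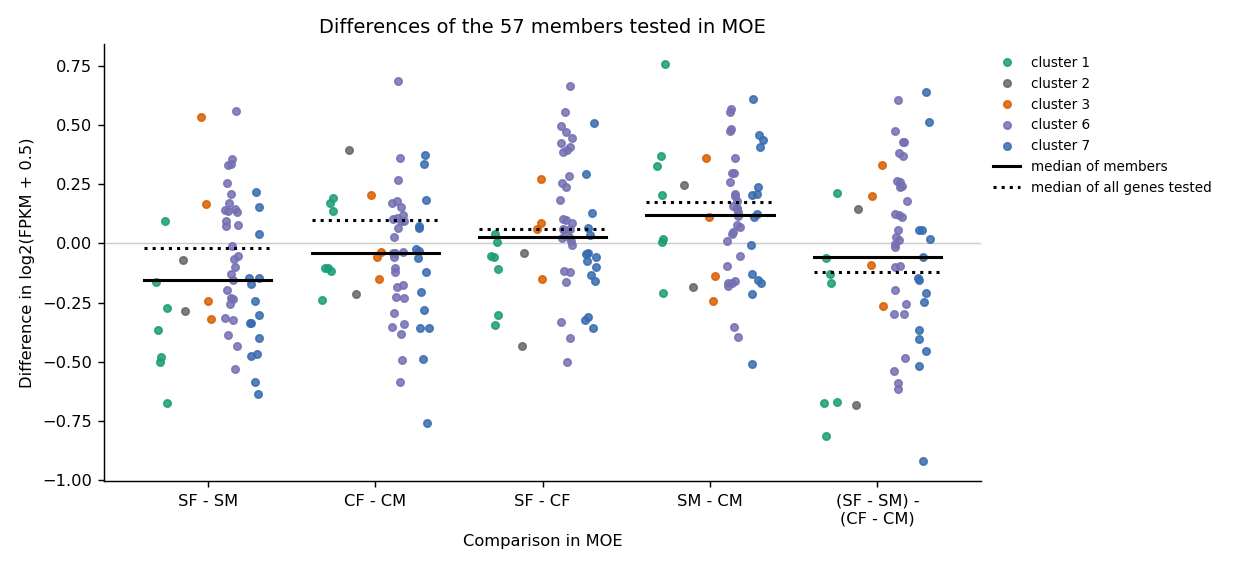
Differences in log2(FPKM + 0.5) of the 57 members tested in MOE, 1 point per gene and comparison, coloured by positional cluster; solid lines are the medians of the members and dotted lines those of all 13757 genes tested. None of the points passed the adjusted threshold, and the medians of the members lie between -0.155 (SF minus SM) and 0.122 (SM minus CM).

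Whether the sex difference itself differed by housing was tested as an interaction term, and 0 of 57 members passed (0.0363% of all genes did), with 2 at an unadjusted p under 0.05 (3.51%, against 4.59%). The smallest p was that of Olfr524, with SF 0.420 ± 0.229, SM 0.855 ± 0.133, CF 0.625 ± 0.139 and CM 0.397 ± 0.170 FPKM (interaction -0.92, SE 0.296, adjusted p = 0.929 in limma). Olfr291 (-0.68) and Olfr1344 (-0.81) followed. These data limit how large a change could be missed. The interval of 2 SE on each side lay within 1 unit of the log2(FPKM + 0.5) scale, which is more than a 2-fold change in FPKM for low members, for 47 of 57 members for SF against SM, 52 for CF against CM, 47 for SF against CF, 49 for SM against CM and 27 for the interaction.

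In VNO, Olfr692 was the only member with the mean needed for a test. Its group means were 2.13 ± 0.330 FPKM in SF, 2.15 ± 0.849 in SM, 3.26 ± 0.470 in CF and 1.94 ± 0.690 in CM. The log2 difference of CF minus CM was 0.66 (SE 0.251, adjusted p = 1 in limma, 0.0433% of 13849 genes called), which did not pass. For SF minus SM it was 0.03 (adjusted p = 0.972 in limma, 0.0722% called). The SF minus CF difference was -0.52 (adjusted p = 0.462 in limma, 0% called), that of SM minus CM 0.11 (0% called) and the interaction -0.63 (0% called), and none of them passed. In OB no member reached the mean needed, so none was tested there under that filter.

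The genes that serve these receptors gave the same counts in MOE. Of 15 genes of olfactory transduction, from Omp and the G protein subunit Gnal to adenylyl cyclase Adcy3, the channel subunits Cnga2, Cnga4 and Cngb1 and the chloride channel Ano2, 0 rose and 0 fell in each of the 5 comparisons, with medians of -0.24 for SF minus SM, 0.09 for CF minus CM, -0.03 for SF minus CF, 0.19 for SM minus CM and -0.30 for the interaction. Of 13 genes of receptor choice and trafficking, among them Lhx2, Ldb1 and Emx2, the Ebf factors, Kdm1a and Lbr, and the chaperones Rtp1 and Rtp2 that bring receptors to the membrane, 0 rose and 0 fell in each, with medians of -0.17, 0.10, -0.08, 0.17 and -0.26 in the same order. At an unadjusted p under 0.05 there was at most 1 gene of either list in a comparison. The lists were lowest in SF and CM libraries with low Omp: transduction summed to 2080 to 3180 FPKM in SF and 1880 to 3000 in CM, against 2820 to 2910 in SM and 2600 to 3050 in CF. When each library was scaled to its mature olfactory neuron markers, the members' median was -0.0518 for SF minus SM (-0.155 unscaled), -0.146 for CF minus CM (-0.0406), 0.0564 for SF minus CF (0.0270) and -0.0352 for SM minus CM (0.122), so the last turned in sign, and 0 members passed in each.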

How the data were processed

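RNA from MOE, VNO and OB was sequenced after depletion of ribosomal RNA (stranded libraries, paired ends). Per the labels, the authors aligned reads to mm9 with TopHat2 2.1.0 and deposited FPKM values with confidence limits from Cufflinks 2.2.1.0 for each transcript locus; its options are not given in the sources used here. How reads shared by near-identical receptors were assigned is therefore open. The paper lists read pairs and alignment rates for each library, and these did not enter the fits.

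Entries (40150 in MOE, 40008 in VNO and OB; 99.7% with a symbol) were summed per gene symbol, and genes with a failed entry were left out (5, 1 and 1). Fragments behind a value were taken as the square of FPKM over its standard error, read off the confidence limits, and 73.2% of member values above 0 in MOE, 94.1% in VNO and 100% in OB came out whole within 0.01. The floor of 3 fragments covers counting error only. The intervals around differences between groups in MOE were built from limma's SE, which measures the spread between pools.

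Groups were compared with limma 3.58.1 (R 4.3.3), with a mean-variance trend in eBayes, using log2(FPKM + 0.5) and a single model per tissue of 12 libraries, for genes with a mean of at least 0.5 FPKM, and tissues in 1 unfiltered fit over 36 libraries. Fold changes on this scale understate those of low genes. P-values, adjusted after Benjamini and Hochberg across every gene tested, were read at a threshold of 0.05 and measure the spread between pools, which may be technical in part. The test was tried on simulated data first. Coding sequences were compared with BLAST 2.17.0, and summaries and plots were made with Python 3.11.15, pandas 2.3.3, numpy 2.4.6 and matplotlib 3.10.9.

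The members, the gene lists and the naming rule were chosen with earlier results of these data known. The rule names the 10 highest members in MOE, 5 well studied receptors, the 3 smallest p per MOE comparison, the 3 highest in VNO and in OB, members higher there than in MOE, those at the window's edges, the 3 least and most variable, and the highest of each cluster. Any further gene was named with its values in view. Alternatives were pseudocounts of 0.1 and 1, other filters, and quantile, upper quartile and neuron marker scaling. Further ones were fits on the 6 libraries compared, the highest entry per symbol, and each library left out in turn. The replicate number was also used as a block, together with the group between tissues. Some coding sequence is not reported here.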

Additional observations from a re-analysis of the deposited data

How the results depend on the processing

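Within tissues, the count of members called was 0 in each of the 15 comparisons and stayed 0 under all 302 alternatives run. In OB no member passed the main filter, and in VNO only Olfr692 did, so only the MOE counts bear on the set. The smallest adjusted p in MOE under any alternative was 0.178 (limma), and leaving out single libraries gave 0 to 0. Members called numbered 93 between MOE and VNO and 94 between MOE and OB. When genes needed a mean of 0.5 FPKM over the 36 libraries, 30 and 30 were called, since only 30 members passed that filter. They could pass it only through the tissue where they were high, so this count is no check on the tissue difference. Between VNO and OB, 4 were called, and 7 with a pseudocount of 0.1. Leaving out single libraries gave 91 to 94, 92 to 97 and 4 to 4. The mean MOE sum stayed between 146 and 153 FPKM, and was 148 without the 3 genes with class I relatives (an alternative chosen after seeing the data, as were the cluster medians without single libraries). For single genes, 568 alternatives were counted, and all kept the direction and the side of the threshold. They covered the 3 smallest p per MOE comparison and the 4 genes called between VNO and OB. They also covered Olfr692 in MOE against VNO, in MOE against OB, and for CF minus CM in VNO. Other single-gene differences named in the text were not part of this count.

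Replicate numbers are shared between groups. Same-numbered MOE libraries deviated from their group means with a mean r of 0.0246 (-0.0666 to 0.236), against -0.0122 for different numbers. In VNO these means were 0.065 and -0.0325, and in OB 0.00392 and -0.00193. The libraries were taken as unpaired in the main fits. With the replicate number as a block, 0 members were called within tissues. Between tissues the block was group and number together, and 93, 94 and 4 were called. Across tissues, libraries of the same group and number had deviations with a mean r of 0.00813 (-0.238 to 0.162). For the same group and different numbers it was -0.00396. The paper's text does not say whether equal numbers in different tissues mark the same mice. Depth limits the lower members: 55 of 112 members lay under 0.5 FPKM in MOE and 111 in VNO, so smaller changes in these were not detectable.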
